A study of Mus musculus with 6 samples.

Results

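Regulators and products of effector regulatory T (Treg) cells were described through 10 genes, which were matched by symbol in both deposited tables: the transcription factors Prdm1, Irf4, Batf and Maf, the secreted products Il10, Ebi3, Fgl2 and Areg, and the receptors Klrg1 and Il1rl1. They are 10 of the 14608 genes in the tables, and 10 of 10 passed the filter on low values (a mean of at least 0.5 RPKM over all libraries), which left 12233 genes for testing. RPKM is the number of reads scaled by transcript length and by the library's total, so levels can be compared between genes. Mouse Treg cells were sorted from spleen by flow cytometry as cells carrying CD4 and the fluorescent protein YFP, and their RNA was sequenced in 6 libraries: 2 from wild type (WT) mice, 2 from heterozygous Cdc42 knockout mice (Cdc42+/-) and 2 from homozygous Cdc42 knockout mice (Cdc42-/-). Cdc42 is a small GTPase that organises the actin cytoskeleton and cell polarity. All groups share the CD4+YFP+ gate, and what drives YFP or deletes Cdc42, and the age and sex of the mice, are not given in the sources used here. The series' design text counts mice per genotype, so each library was taken as 1 mouse.

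Treg cells restrain immune responses and depend on the transcription factor Foxp3. Resting Treg cells recirculate through lymphoid organs, whereas effector Treg cells have responded to antigen and enter tissues. IRF4, which binds DNA together with BATF and JUN proteins at composite elements, is needed for this step, and it acts upstream of Blimp-1, the product of Prdm1, which marks IL-10-producing effector Treg cells. c-MAF promotes IL-10 production, and ST2, the receptor for IL-33 encoded by Il1rl1, marks Treg cells of tissues that can release the growth factor amphiregulin.

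The libraries held between 8556576 and 17796100 reads in genes, and the members had between 3 and 3867 reads per library. The targeted gene was not called lower in the homozygous group, whose libraries lay on both sides of WT: Cdc42 stood at 166 and 161 RPKM in the WT mice, 164 and 156 in the heterozygotes, and 122 and 173 in the homozygotes (log2 change against WT -0.17, adjusted p = 0.550, limma). Whether the counted reads include the deleted part of the gene is not given in the sources used here, so every direction below refers to the libraries as labelled. Foxp3 stood between 103 and 131 RPKM in 5 libraries and at 58.4 in Cdc42-/- replicate 2. That library stood apart. Its 10 monocyte and macrophage markers summed to 1314 RPKM against 42.5 to 72.1 in the other 5, with Lyz2 at 600.2 RPKM. Its neutrophil markers summed to 519 against 15.5 to 57.1, and its mast cell and basophil markers to 80.1 against 1.38 to 7.80. The T cell and Treg markers summed to 788 RPKM there and to 990.05 to 1217 elsewhere. Sex-linked genes moved with genotype: Xist stood at 0.199 and 1.13 RPKM in the WT libraries, 99.3 and 93.3 in those of Cdc42+/-, and 87.4 and 21.2 in those of Cdc42-/-, and the Y-linked Ddx3y at 37.7 and 42.4, 0.126 and 0, and 0.0974 and 27.5. What these genes mark therefore cannot be told apart from genotype between WT and Cdc42+/-, nor between WT and Cdc42-/- replicate 1, on which the comparison with WT rests when replicate 2 is left out. With both Cdc42-/- libraries, Xist differed from WT by a log2 change of 4.80 (adjusted p = 0.00753). Cdc42-/- replicate 1 and both Cdc42+/- libraries were alike in these genes. Cdc42-/- replicate 2 held both genes at levels between those of the other libraries. Whether that library holds the RNA of 1 mouse was not tested, and n below counts libraries.

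**Figure D1:**
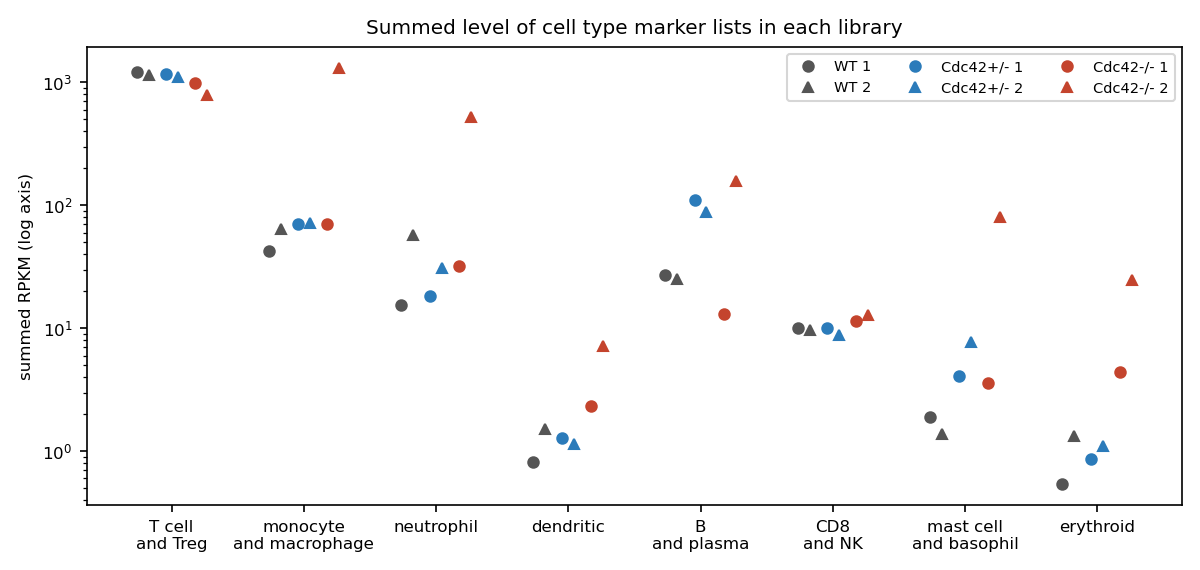
Summed RPKM of 8 lists of cell type markers (log axis) in the 6 libraries, 1 point per library and list. The monocyte and macrophage list stood at 1314 RPKM in Cdc42-/- replicate 2 and at 42.5 to 72.1 in the other 5 libraries.

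In the Cdc42-/- libraries, 5 of the 10 genes were higher than in WT and 0 were lower: Prdm1, Irf4, Batf, Il10 and Il1rl1 (limma, Benjamini-Hochberg adjusted p under 0.05 over all genes tested). Over all genes tested, 11.4% passed this threshold, 6.86% as higher and 4.57% as lower in Cdc42-/-. Against Cdc42+/-, 4 of the 10 were higher in Cdc42-/-, namely Prdm1, Irf4, Batf and Il10, and 1 was lower, Klrg1. Here 8.22% of all genes passed, 4.68% as higher and 3.54% as lower. Between Cdc42+/- and WT, 0 of the 10 passed, and 0% of all genes did, the smallest adjusted p of any gene being 0.206. At an unadjusted p under 0.05, 4 of the 10 and 529 of all genes (4.32%) were reached in that comparison. The median log2 change of the 10 genes was 0.63 for Cdc42-/- against WT, 0.31 for Cdc42-/- against Cdc42+/- and 0.23 for Cdc42+/- against WT, beside medians over all genes tested of 0.01, -0.01 and 0.03. Libraries did not overlap for 6 of the 10 genes in each comparison, beside 56.0% of all genes for Cdc42-/- against WT, 59.0% for Cdc42-/- against Cdc42+/- and 43.2% for Cdc42+/- against WT. Without Cdc42-/- replicate 2, 5, 5 and 1 of the 10 were called in the same order, and 18.5%, 14.9% and 0.540% of all genes. The median of the 10 was then 0.49 against WT and 0.08 against Cdc42+/-. Any pair of these comparisons shares the libraries of 1 genotype, so they are not independent. In bulk RNA, fewer cells of a type and less RNA per cell cannot be told apart.

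**Figure D2:**
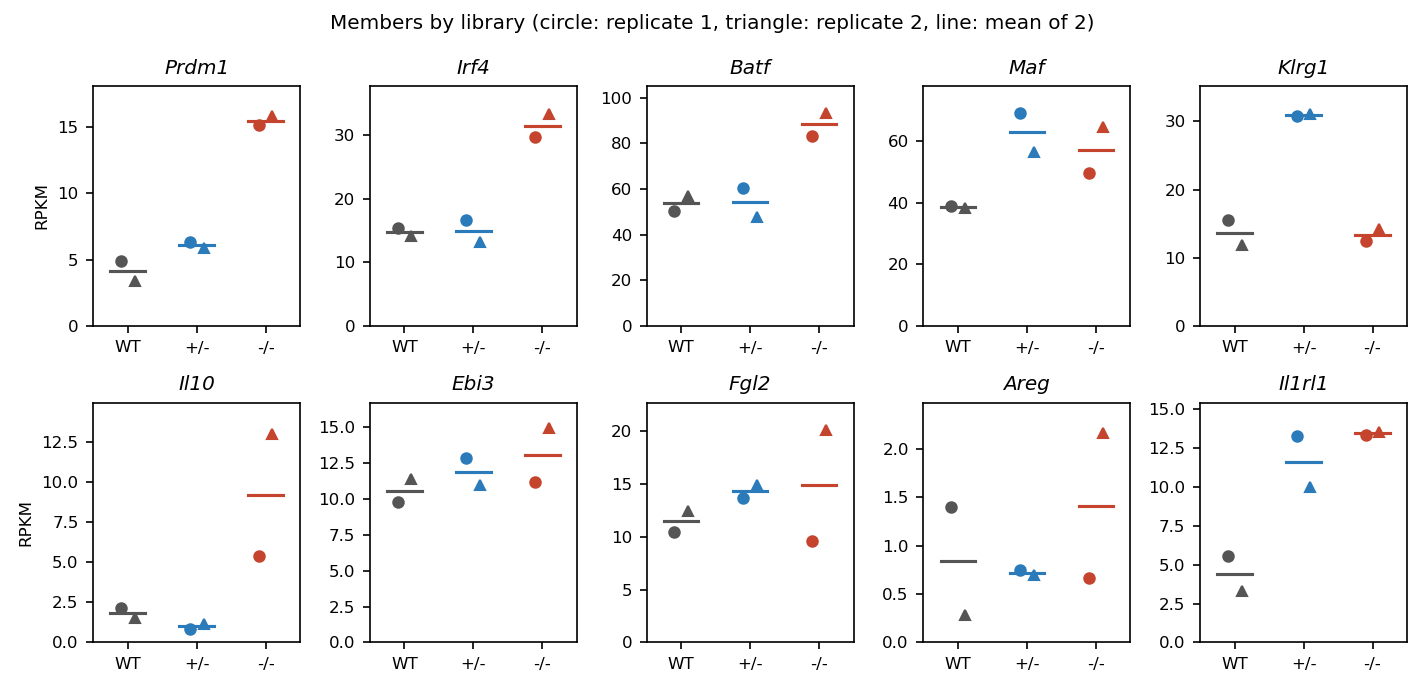
RPKM of the 10 genes in each of the 6 libraries, 1 panel per gene, with each group's mean as a line. Prdm1, Irf4 and Batf stood higher in both Cdc42-/- libraries than in the other 4, and Klrg1 stood higher in both Cdc42+/- libraries. Il10, Fgl2 and Areg stood more than 2-fold higher in replicate 2 than in replicate 1 of Cdc42-/-.

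The promoters of the transcription factors that rose are shown because IRF4, BATF and JUN proteins act on their targets through short DNA elements. RefSeq's GRCm38.p6 table held 8 promoters for 7 of the 10 genes. The 250 bases before the start site in that table are printed for Prdm1 (chr10:44458749-44458998, minus strand), Irf4 (chr13:30748983-30749232, plus strand) and Batf (chr12:85686470-85686719, plus strand), with motif matches in capitals. The Prdm1 start used here lies inside the annotated span of the gene, whose outermost start is at 44528558.
Prdm1: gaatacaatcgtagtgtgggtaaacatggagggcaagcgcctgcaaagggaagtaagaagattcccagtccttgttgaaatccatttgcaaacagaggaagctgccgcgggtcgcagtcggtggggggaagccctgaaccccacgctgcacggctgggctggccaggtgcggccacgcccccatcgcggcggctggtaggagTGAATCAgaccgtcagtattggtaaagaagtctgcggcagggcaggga
Irf4: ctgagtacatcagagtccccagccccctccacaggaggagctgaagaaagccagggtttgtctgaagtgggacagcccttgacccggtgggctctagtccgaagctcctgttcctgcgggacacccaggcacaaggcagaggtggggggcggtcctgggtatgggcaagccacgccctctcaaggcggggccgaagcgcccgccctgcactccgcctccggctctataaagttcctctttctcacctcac
Batf: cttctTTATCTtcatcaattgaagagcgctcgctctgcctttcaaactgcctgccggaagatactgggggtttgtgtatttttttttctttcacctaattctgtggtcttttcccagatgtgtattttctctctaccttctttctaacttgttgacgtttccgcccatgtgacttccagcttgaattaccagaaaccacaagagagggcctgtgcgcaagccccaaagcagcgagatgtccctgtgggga
Matches were sought on both strands for an AP-1 site (TGANTCA), an interferon regulatory factor element (GAAA, any 2 bases, GAAA), an NF-kB site (GGGA, any base, TTTCC) and a GATA site (AGATAA). The capitals in the Prdm1 promoter are an AP-1 match 48 to 42 bases before that internal start, the kind of site that BATF with JUN binds. The capitals in the Batf promoter are a GATA match on the opposite strand, 245 to 240 bases before the start. The Irf4 promoter held no match to these letters. Over the 8 promoters, 2 held the AP-1 letters (Prdm1 and Fgl2, whose TGAGTCA lies 16 to 10 bases before the start) and 3 held the GATA letters, against 6.75% and 9.99% of all 32851 promoters in the table. The interferon regulatory factor and NF-kB letters stood in 0 of 8, and in 2.98% and 0.356% of all promoters. A match is a description of the letters in this window only.

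Prdm1 (gene ID 12142; GRCm38 chromosome 10, 44437174 to 44528558, minus strand) encodes Blimp-1, a transcriptional repressor that drives plasma cell and effector T cell differentiation. The values were 4.88 and 3.37 RPKM in the WT mice, 6.31 and 5.88 in the heterozygotes, and 15.1 and 15.8 in the homozygotes, from 150 to 872 reads per library. Both Cdc42-/- libraries lay above the other 4, and the 3 groups did not overlap. The mean rose 3.76-fold from WT, from 4.12 ± 1.07 to 15.5 ± 0.488 RPKM (SD, n = 2 each), a log2 change of 1.70 (SE 0.19, adjusted p = 0.00443). It was 2.54-fold above Cdc42+/- (log2 change 1.22, SE 0.19, adjusted p = 0.0177). Cdc42+/- against WT gave 0.49 (SE 0.19, adjusted p = 0.999). Plasma cells also express Prdm1, and B and plasma cell markers summed to 27.0 and 25.2 RPKM in the WT mice, 110.9 and 88.97 in the heterozygotes, and 13.1 and 157 in the homozygotes. Within this list, Cdc42-/- replicate 1 held Ms4a1 and Mzb1 at 0, Jchain at 0.946 RPKM and Sdc1 at 2.07 RPKM. Sdc1 stood at 0.473 and 3.94 RPKM in the WT mice and at 1.41 and 0.937 in the heterozygotes. The part of plasma cells in the Prdm1 level was not tested. The rise from WT was called under 14 of 14 other ways of fitting. The difference from Cdc42+/- was lost without Cdc42+/- replicate 1 (adjusted p = 0.156) or replicate 2 (0.183).

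Irf4 (gene ID 16364; chromosome 13, 30749233 to 30766981, plus strand), the factor required for effector Treg differentiation, held 15.5 and 14.2 RPKM in the WT libraries, 16.7 and 13.2 in those of Cdc42+/-, and 29.8 and 33.3 in those of Cdc42-/-. The WT and Cdc42+/- libraries overlapped, and both Cdc42-/- libraries lay above all of them. The mean in Cdc42-/- was 2.13-fold that of WT (31.6 ± 2.52 against 14.8 ± 0.903 RPKM, SD, n = 2 each). The log2 change was 1.04 against WT (SE 0.15, adjusted p = 0.0107) and 1.04 against Cdc42+/- (adjusted p = 0.0156), while Cdc42+/- against WT gave 0.00 (adjusted p = 0.999). The call against WT was lost without WT replicate 1 (adjusted p = 0.0801) or WT replicate 2 (0.101). The call against Cdc42+/- was lost without WT replicate 1 (0.0562), WT replicate 2 (0.0559), Cdc42+/- replicate 1 (0.112) or Cdc42+/- replicate 2 (0.163), and in a fit of those 2 groups alone (0.0565).

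Batf (gene ID 53314; chromosome 12, 85686720 to 85709087, plus strand), the AP-1 family partner of IRF4, had the highest level of the 10 genes in WT and in Cdc42-/-. The values were 50.5 and 56.98 RPKM in the WT mice, 60.5 and 47.8 in the heterozygotes, and 83.2 and 93.3 in the homozygotes. Again WT and Cdc42+/- overlapped and both Cdc42-/- libraries lay above. The mean rose 1.64-fold from WT (53.7 ± 4.61 to 88.2 ± 7.09 RPKM, SD, n = 2 each), a log2 change of 0.71 (SE 0.15, adjusted p = 0.0342), and the log2 change against Cdc42+/- was 0.70 (adjusted p = 0.0417). These calls were close to the threshold. Against WT, 7 of 14 other ways of fitting called it. Leaving out WT replicate 1 (0.195), WT replicate 2 (0.141), Cdc42+/- replicate 1 (0.0636) or Cdc42+/- replicate 2 (0.0631) lost it, as did array weights (0.116) and a fit of the 2 groups alone (0.0635). Against Cdc42+/-, 6 of 14 called it, and the same libraries lost it, with an adjusted p of 0.101 without WT replicate 1, 0.101 without WT replicate 2, 0.138 without Cdc42+/- replicate 1 and 0.292 without Cdc42+/- replicate 2. In the authors' deposited table, the adjusted p of Batf for Cdc42-/- against WT was 0.0888.

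Maf (gene ID 17132; 115703253 to 115706894 on chromosome 8, minus strand), the gene of the factor c-MAF that promotes IL-10, had another order of groups. The values were 38.8 and 38.1 RPKM in the WT libraries, 69.2 and 56.3 in those of Cdc42+/-, and 49.7 and 64.7 in those of Cdc42-/-. All 4 libraries of the knockout genotypes lay above both WT libraries, and the knockout genotypes overlapped each other. The means were 1.63-fold and 1.49-fold that of WT, with log2 changes of 0.68 (SE 0.16, adjusted p = 0.574) for Cdc42+/- and 0.55 (adjusted p = 0.0854) for Cdc42-/-, which limma did not call. For Cdc42-/- against WT, Maf was called without Cdc42-/- replicate 1 (0.73, adjusted p = 0.00627) and was at 0.36 without replicate 2 (adjusted p = 0.108). In the authors' deposited table, Maf was called for Cdc42+/- against WT (log2 change 0.68, adjusted p = 3.32e-07) and not for Cdc42-/- against WT (0.204).

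Il10 (gene ID 16153; chromosome 1, 131019845 to 131024970, plus strand), the suppressive cytokine, was among the lowest of the 10 genes, with 17 to 155 reads per library. The values were 2.16 and 1.52 RPKM in the WT mice, 0.848 and 1.16 in the heterozygotes, and 5.40 and 12.99 in the homozygotes. The 3 groups did not overlap, Cdc42+/- being lowest and Cdc42-/- highest, and the Cdc42-/- libraries were far apart. The mean was 4.99-fold that of WT (9.20 ± 5.37 against 1.84 ± 0.456 RPKM, SD, n = 2 each), a log2 change of 1.74 (SE 0.39, adjusted p = 0.0397). It was 9.15-fold that of Cdc42+/- (log2 change 2.24, SE 0.39, adjusted p = 0.0243). Monocytes and macrophages can make IL-10, and the higher of the Cdc42-/- values came from the library with the high myeloid markers. In Cdc42-/- replicate 1, whose monocyte and macrophage markers summed to 70.2 RPKM beside 70.9 and 72.1 in Cdc42+/-, Il10 stood at 5.40 RPKM against at most 2.16 in WT and Cdc42+/-. The part of myeloid cells in the Il10 level was not tested. Without Cdc42-/- replicate 2 the log2 change was 1.18 against WT (adjusted p = 0.0265) and 1.68 against Cdc42+/- (adjusted p = 0.0105). Of 14 other ways of fitting, 6 called Il10 against WT (adjusted p from 0.00106 to 0.220) and 8 against Cdc42+/- (0.000726 to 0.192). The call against WT was lost without WT replicate 1, WT replicate 2, Cdc42+/- replicate 1 or Cdc42+/- replicate 2, and the call against Cdc42+/- without the same libraries. Both calls were also lost with voom (adjusted p = 0.0943 against WT and 0.0512 against Cdc42+/-). A fit of the 2 groups alone lost them too (0.104 and 0.0733). With no filter on low values, the call against WT was lost (0.0554).

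Ebi3 (gene ID 50498; chromosome 17, 55952623 to 55957022, plus strand) encodes the subunit shared by the cytokines IL-27 and IL-35. The values were 9.82 and 11.4 RPKM in the WT libraries, 12.9 and 10.98 in those of Cdc42+/-, and 11.2 and 14.96 in those of Cdc42-/-. All 3 groups overlapped. The log2 change was 0.27 against WT for Cdc42-/- (SE 0.18, adjusted p = 0.365) and 0.16 for Cdc42+/- (adjusted p = 0.999). For Cdc42-/- it was 0.46 without Cdc42-/- replicate 1 (adjusted p = 0.0714) and 0.076 without replicate 2 (adjusted p = 0.801). Ebi3 overlaps the RefSeq genes Gm16712 and Zfp119b, and since the strand setting of the counting is not given, its reads may be shared with them.

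Fgl2 (gene ID 14190; chromosome 5, 21372673 to 21378386, plus strand), a secreted fibrinogen-like suppressor that macrophages express too, measured 10.5 and 12.4 RPKM in the WT mice, 13.7 and 14.9 in the heterozygotes, and 9.60 and 20.1 in the homozygotes. Cdc42-/- held both the lowest and the highest of the 6 values, the highest in the library with the high myeloid markers. The log2 change for Cdc42-/- against WT was 0.27 (SE 0.31, adjusted p = 0.606) with all libraries and -0.23 (adjusted p = 0.379) without Cdc42-/- replicate 2, while without Cdc42-/- replicate 1 it was 0.77 and called (adjusted p = 0.00962). Fgl2 overlaps the RefSeq gene Ccdc146, with which reads may be shared. The part of other cell types in the Fgl2 level was not tested.

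Areg (gene ID 11839; chromosome 5, 91139599 to 91148432, plus strand), the gene of amphiregulin, was the lowest of the 10 in each genotype, with 3 to 27 reads per library. The values were 1.40 and 0.288 RPKM in the WT libraries, 0.751 and 0.693 in those of Cdc42+/-, and 0.670 and 2.16 in those of Cdc42-/-. The groups overlapped, and the WT libraries differed from each other by more than Cdc42+/- did from either. No difference was called: the log2 change for Cdc42-/- against WT was 0.39 (SE 0.44, adjusted p = 0.594), and -0.07 without Cdc42-/- replicate 2 (adjusted p = 0.921).

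**Figure D3:**
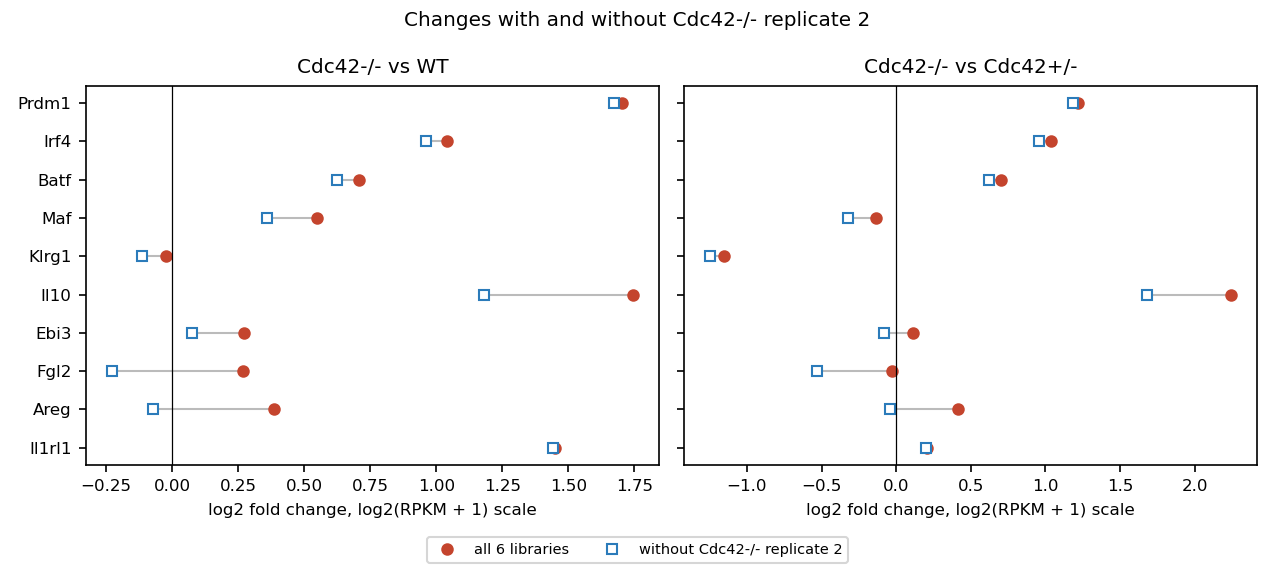
Log2 changes of the 10 genes on the log2(RPKM + 1) scale, for Cdc42-/- against WT (left) and against Cdc42+/- (right), with all 6 libraries (circles) and without Cdc42-/- replicate 2 (squares). Prdm1 moved from 1.70 to 1.67 and Il1rl1 from 1.45 to 1.44 against WT, whereas Il10 moved from 1.74 to 1.18 and Fgl2 from 0.27 to -0.23.

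Il1rl1 and Klrg1 encode the receptors of the set. The promoters of Il1rl1 are shown because it was the only receptor of this pair called against WT, and because it has alternative start sites from which the membrane receptor and the soluble decoy form of ST2 are made in different cell types. The 250 bases before each of the start sites that the RefSeq promoter table gives for it, chr1:40429320-40429569 and chr1:40439379-40439628 on the plus strand of GRCm38.p6, are printed with the GATA matches in capitals. Both starts lie inside the annotated span of the gene, which begins at 40404864, and the window before that outermost start was not used here. GATA3, which binds such sites, is a regulator of Il1rl1 in T cells.
Il1rl1, more upstream of these starts: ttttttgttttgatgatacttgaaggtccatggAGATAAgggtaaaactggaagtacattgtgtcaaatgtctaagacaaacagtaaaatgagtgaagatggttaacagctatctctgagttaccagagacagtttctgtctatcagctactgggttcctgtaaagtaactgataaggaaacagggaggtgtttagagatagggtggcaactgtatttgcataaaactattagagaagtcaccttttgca
Il1rl1, more downstream of these starts: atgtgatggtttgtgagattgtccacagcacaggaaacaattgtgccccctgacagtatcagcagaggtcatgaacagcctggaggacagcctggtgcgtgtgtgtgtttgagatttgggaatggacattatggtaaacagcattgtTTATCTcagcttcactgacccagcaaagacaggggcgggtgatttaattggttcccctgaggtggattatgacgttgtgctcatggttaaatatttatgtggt
The match lies 217 to 212 bases before the more upstream start and 103 to 98 bases before the more downstream start, the latter on the opposite strand. The deposited values count the whole gene, so which start site was used cannot be read from them.

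Il1rl1 (gene ID 17082; chromosome 1, 40404864 to 40465418, plus strand) measured 5.53 and 3.29 RPKM in the WT mice, 13.3 and 9.97 in the heterozygotes, and 13.4 and 13.5 in the homozygotes. All 4 libraries of the knockout genotypes lay above both WT libraries. The mean in Cdc42-/- was 3.05-fold that of WT (13.5 ± 0.103 against 4.41 ± 1.59 RPKM, SD, n = 2 each), a log2 change of 1.45 (SE 0.24, adjusted p = 0.0167). In Cdc42+/- the mean was 2.64-fold that of WT, with a log2 change of 1.24 (SE 0.24) that limma did not call (adjusted p = 0.414). Cdc42-/- against Cdc42+/- gave 0.21 (SE 0.24, adjusted p = 0.611). The call against WT was lost without WT replicate 2 (adjusted p = 0.0934), with array weights (0.0560) and in a fit of the 2 groups alone (0.0513). In the authors' deposited table, Il1rl1 was called in both comparisons, with log2 changes of 1.36 (adjusted p = 2.05e-08) for Cdc42+/- and 1.55 (adjusted p = 1.47e-05) for Cdc42-/-. Mast cells and basophils also carry ST2, and their markers summed to 1.89 and 1.38 RPKM in the WT mice, 4.09 and 7.80 in the heterozygotes, and 3.60 and 80.1 in the homozygotes. The part of these cells in the Il1rl1 level was not tested. Xist was also higher in all 4 libraries of the knockout genotypes than in WT, and its part in the Il1rl1 difference cannot be told apart from that of genotype.

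Klrg1 (gene ID 50928; chromosome 6, 122270596 to 122282833, minus strand), an inhibitory receptor for cadherins that marks terminally differentiated effector Treg cells, was the 1 gene of the 10 called lower in Cdc42-/- than in Cdc42+/-. The values were 15.5 and 11.9 RPKM in the WT libraries, 30.8 and 31.1 in those of Cdc42+/-, and 12.5 and 14.3 in those of Cdc42-/-. Both Cdc42+/- libraries lay above the other 4, and WT and Cdc42-/- overlapped. NK cells and CD8 T cells also carry Klrg1. The 4 CD8 and NK markers in the tables summed to 10.1 and 9.72 RPKM in the WT mice, 10.1 and 8.81 in the heterozygotes, and 11.5 and 12.8 in the homozygotes. Among them, Klrb1c was highest in both heterozygotes, with 0.384 and 0.294, 1.13 and 1.13, and 0 and 0.158 RPKM in the same order. Cd8a was not, with 0.401 and 0.970, 0.229 and 0.413, and 1.13 and 4.23 RPKM. Neither was Cd8b1 (7.72 and 7.51, 7.27 and 6.31, and 7.73 and 6.34) nor Eomes (1.55 and 0.953, 1.49 and 0.957, and 2.62 and 2.08). The part of these cells in the Klrg1 level was not tested. The mean of Cdc42+/- was 2.31-fold that of Cdc42-/- (30.9 ± 0.169 against 13.4 ± 1.29 RPKM, SD, n = 2 each), a log2 change for Cdc42-/- of -1.15 (SE 0.16, adjusted p = 0.0141). The log2 change of Cdc42+/- against WT was 1.13 (SE 0.16, adjusted p = 0.278), and that of Cdc42-/- against WT was -0.02 (adjusted p = 0.937). The difference from Cdc42-/- was lost without Cdc42+/- replicate 1 (adjusted p = 0.141) or replicate 2 (0.162). The difference from WT was gained without Cdc42-/- replicate 1 (0.0279), without Cdc42-/- replicate 2 (0.0301), with array weights (0.0140) and in a fit of the 2 groups alone (0.0313). In the authors' deposited table, Klrg1 was called for Cdc42+/- against WT with a log2 change of 1.13 and an adjusted p of 1.67e-08. Without Cdc42-/- replicate 2, the library with the high myeloid markers, Klrg1 was again lower in Cdc42-/- than in Cdc42+/- (log2 change -1.25, adjusted p = 0.00635).

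**Figure D4:**
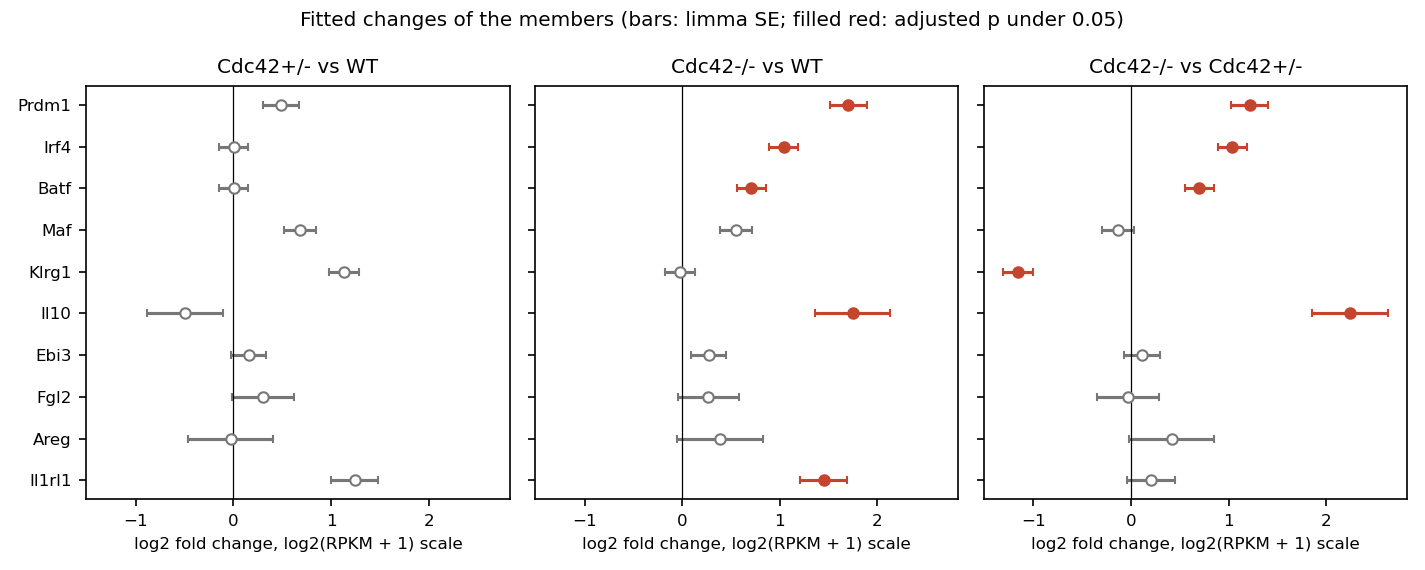
Log2 changes of the 10 genes with their standard errors, on the log2(RPKM + 1) scale, for the 3 comparisons of genotypes. Filled points passed an adjusted p of 0.05 (limma): 0 for Cdc42+/- against WT, 5 for Cdc42-/- against WT and 5 for Cdc42-/- against Cdc42+/-, Klrg1 being the only one of these below 0.

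The authors' deposited table called 3 of the 10 genes for Cdc42+/- against WT at an adjusted p under 0.05 (Klrg1, Il1rl1 and Maf), where it called 2.28% of its genes in all. It called 4 for Cdc42-/- against WT (Prdm1, Il1rl1, Irf4 and Il10), where it called 8.66% in all. For Cdc42-/-, the adjusted p in the authors' deposited table was 1.51e-07 for Prdm1, 0.000470 for Irf4 and 0.0445 for Il10.

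The order of the levels per length differed between genotypes. In WT, Batf (mean 53.7 RPKM) and Maf (38.5) stood above Irf4 (14.8), Klrg1 (13.7), Fgl2 (11.4) and Ebi3 (10.6), and among these 4 each overlapped its neighbour in the order. Il1rl1 (4.41) and Prdm1 (4.12) overlapped each other below them, then Il10 (1.84) and Areg (0.842) followed without overlap. In Cdc42+/-, Maf (62.7) and Batf (54.2) overlapped at the top and Klrg1 (30.9) came next, followed by Irf4 (14.9) and Fgl2 (14.3), which overlapped, and by Ebi3 (11.9) and Il1rl1 (11.6), which also did. Prdm1 (6.10), Il10 (1.005) and Areg (0.722) closed the order there. In Cdc42-/-, Batf (88.2) stood above Maf (57.2) and Maf above Irf4 (31.6). Below them Prdm1 (15.5), Fgl2 (14.8), Il1rl1 (13.5), Klrg1 (13.4), Ebi3 (13.1) and Il10 (9.20) each overlapped the next in the order, and Areg (1.42) came last. Against all genes in the tables, the Prdm1 mean was above 40.6% of genes in WT, 46.1% in Cdc42+/- and 65.9% in Cdc42-/-. For Il10 these shares were 31.5%, 25.3% and 53.6%, and for Batf 91.6%, 91.5% and 95.3%.

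Partners and antagonists of the 4 transcription factors moved in both directions. Of 22 regulators listed, 21 were in the tables and tested, and 5 were higher and 2 lower in Cdc42-/- than in WT, and 4 higher and 3 lower than in Cdc42+/-. For Cdc42+/- against WT, 0 passed. The list's median log2 changes were 0.38, 0.26 and 0.05 in that order. Id3, an inhibitor of E proteins that Blimp-1 is known to repress, fell from 63.6 and 75.7 RPKM in WT to 23.9 and 19.8 in Cdc42-/-, with 66.5 and 62.8 in Cdc42+/- (log2 change -1.63 against WT, SE 0.14, adjusted p = 0.00231; -1.53 against Cdc42+/-, adjusted p = 0.00808). Both Cdc42-/- libraries lay below the other 4. Myb, a factor of effector Treg differentiation, rose from 17.5 and 18.9 RPKM in WT to 38.7 and 52.5 in Cdc42-/- (log2 change 1.26, SE 0.18, adjusted p = 0.00991) and stood at 14.96 and 12.4 in Cdc42+/-. Jun and Junb encode AP-1 proteins that pair with BATF. Junb stood at 78.9 and 94.4 RPKM in the WT mice, 104.7 and 83.6 in the heterozygotes, and 161 and 176 in the homozygotes (log2 change against WT 0.96, SE 0.15, adjusted p = 0.0142). Jun stood at 2.50 and 3.45, 1.72 and 2.04, and 18.8 and 71.8 RPKM in the same order (log2 change against WT 3.27, SE 0.56, adjusted p = 0.0182), so that the Cdc42-/- libraries lay above the others and far from each other. The log2 change of Jun was 2.33 without Cdc42-/- replicate 2 (adjusted p = 0.00179). With Cdc42-/- replicate 2 left out, the regulators' median log2 change was 0.43 against WT and 0.37 against Cdc42+/-. The list's counts with all libraries stand beside 11.4% of all genes tested against WT and 8.22% against Cdc42+/-.

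Among receptors and signalling partners of the products, 15 of 18 listed genes were in the tables and 14 were tested, and Il12a, Il27 and Il33 were not analysed here. In each Cdc42-/- comparison 1 was higher and 1 was lower, and for Cdc42+/- against WT 0 passed. Il10rb, the shared chain of the IL-10 receptor, fell from 46.7 and 51.3 RPKM in WT to 30.8 and 30.8 in Cdc42-/- (log2 change -0.65, SE 0.10, adjusted p = 0.0134) and stood at 46.1 and 46.2 in Cdc42+/- (log2 change of Cdc42-/- against it -0.57, adjusted p = 0.0263). Il12rb2, a receptor chain for IL-12 and IL-35, held 0.619 and 0.96 RPKM in the WT libraries, 0.899 and 0.369 in those of Cdc42+/-, and 9.66 and 3.31 in those of Cdc42-/- (log2 change against WT 1.93, SE 0.45, adjusted p = 0.0470; against Cdc42+/- 2.07, adjusted p = 0.0466). With voom weights, the adjusted p of Il12rb2 was 0.0748 and 0.0585, and leaving out Cdc42-/- replicate 2 its log2 change was 2.58 against WT (adjusted p = 0.00259). The list's median log2 changes were 0.04 against WT and -0.11 against Cdc42+/-. Leaving out Cdc42-/- replicate 2 made them -0.17 and -0.23. With all libraries, 11.4% of all genes tested were called against WT and 8.22% against Cdc42+/-.

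Of 20 surface and secreted genes of effector Treg cells, 7 were higher and 0 lower in Cdc42-/- than in WT, and 5 higher and 0 lower than in Cdc42+/-. Of all genes tested, 11.4% were called against WT and 8.22% against Cdc42+/-. Without Cdc42-/- replicate 2 the median log2 change of these 20 genes was 0.68 against WT and 0.57 against Cdc42+/-. Gzmb, the cytotoxic protease granzyme B, measured 1.77 and 2.56 RPKM in the WT mice, 6.35 and 5.32 in the heterozygotes, and 156.5 and 106.5 in the homozygotes (log2 change against WT 5.37, SE 0.23, adjusted p = 0.00135). The Lgals1 mean, for the lectin galectin-1, was 83.96 ± 17.3 RPKM in WT, 178 ± 0.125 in Cdc42+/- and 601 ± 69.8 in Cdc42-/- (SD, n = 2 each; log2 change against WT 2.84, SE 0.17, adjusted p = 0.00144). Icos, the costimulatory receptor, followed with 39.9 ± 1.79, 63.7 ± 11.3 and 177 ± 9.44 RPKM (log2 change against WT 2.12, SE 0.14, adjusted p = 0.00144). Havcr2, the gene of the inhibitory receptor TIM-3, which myeloid cells also carry, held 0 and 0.943 RPKM in the WT libraries, 1.44 and 0.845 in those of Cdc42+/-, and 13.0 and 20.1 in those of Cdc42-/- (log2 change against WT 3.63, SE 0.39, adjusted p = 0.00411). These 4 genes were higher in both Cdc42-/- libraries than in the other 4. Without Cdc42-/- replicate 2 the log2 change of Havcr2 against WT was 3.33 (adjusted p = 0.00346). The list's median log2 change was 0.66 against WT, 0.62 against Cdc42+/- and 0.13 for Cdc42+/- against WT.

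Of 12 genes of resting Treg cells, 2 were higher and 2 lower in Cdc42-/- than in WT, and 2 higher and 1 lower than in Cdc42+/-. The shares of all genes tested that were called were 11.4% and 8.22% in these comparisons. Foxp1, a factor of quiescent T cells, fell from 46.8 ± 2.15 to 24.7 ± 4.02 RPKM (SD, n = 2 each; log2 change -0.90, SE 0.14, adjusted p = 0.0123). Bcl2, the survival gene, fell from 69.2 ± 2.25 to 42.1 ± 5.42 RPKM (log2 change -0.71, SE 0.12, adjusted p = 0.0178). Klf2, which drives exit from lymphoid organs, rose from 121.6 ± 1.08 to 244 ± 52.8 RPKM (log2 change 0.98, SE 0.17, adjusted p = 0.0192). Satb1, a genome organiser of T cells, rose from 48.2 ± 0.118 to 96.1 ± 23.6 RPKM (log2 change 0.96, SE 0.17, adjusted p = 0.0223). The list's median log2 change was -0.13 against WT and -0.14 against Cdc42+/-, and it turned to 0.23 and 0.34 without Cdc42-/- replicate 2. Across the 4 lists, Id3, Gzmb, Lgals1, Icos and Havcr2 were called against WT under each of the 14 alternatives (highest adjusted p 0.0383). Each other named gene missed the threshold against WT in at least 1 alternative, the highest adjusted p being 0.213 for Il12rb2, and against Cdc42+/- no gene was called without Cdc42+/- replicate 1 or without Cdc42+/- replicate 2.

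**Figure D5:**
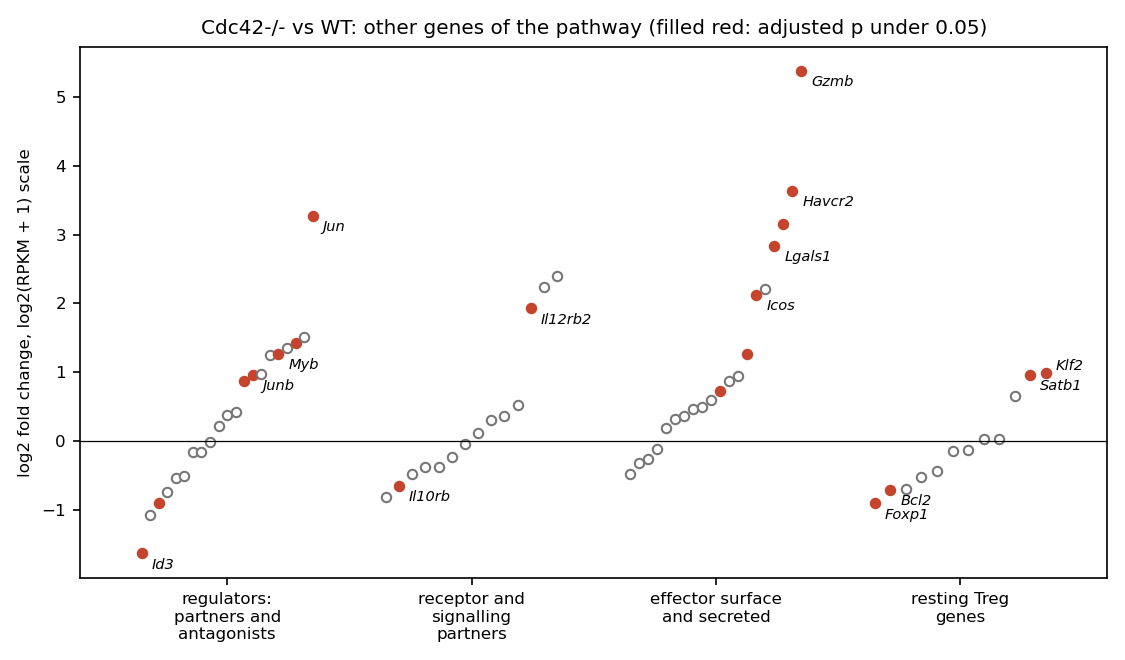
Log2 change in Cdc42-/- against WT on the log2(RPKM + 1) scale for each tested gene of 4 lists of related genes, 1 point per gene in rising order, filled where the adjusted p was under 0.05 (limma). The list of effector surface and secreted genes had 7 filled points, all above 0, up to Gzmb at 5.37, whereas the other lists had filled points on both sides of 0.

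The gene most like each of the 10 was found as the smallest root mean square difference of log2(RPKM + 1) from each gene's own mean over the 6 libraries, among 12232 genes. It was Neurl1b for Prdm1 (0.08), Rnf157 for Irf4 (0.07), Tmem132a for Batf (0.03), Samd11 for Maf (0.08) and Emilin1 for Il10 (0.25). For the others it was Mospd1 for Ebi3 (0.04), Tmed3 for Fgl2 (0.06), Eid3 for Areg (0.12), Rnf125 for Il1rl1 (0.21) and Coro2b for Klrg1 (0.11). Il10 and Il1rl1 were the least closely matched. Neurl1b, for example, measured 0.396 and 0.170 RPKM in the WT mice, 0.979 and 0.79 in the heterozygotes, and 2.98 and 3.64 in the homozygotes, the same order of groups as Prdm1 at a lower level.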

How the data were processed

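RNA was sequenced from sorted Treg cells in 6 libraries, 2 per genotype, each taken as 1 mouse from the series' design text. That assumption was not tested. Reads were aligned with TopHat to mm10, per the submitters' processing notes; the counting tool, annotation, strand setting, filter and test are not given in the sources used here. The deposited tables hold per-library columns whose unit is not named in the headers. These are RPKM values made by the authors, as worked out from the values: with the group means, 100% of the deposited values came out as whole reads within 0.02 reads, and the WT reads of both tables differed at 0 genes. Per the file headers, the authors also give group means (a normalised signal), a fold change ratio, the log2 of that ratio and raw and adjusted p-values, which are quoted only as theirs.

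Genotypes came from the sample titles. The main test was limma 3.58.1 (R 4.3.3; linear model and moderated statistics with trend) of log2(RPKM + 1). It covered the 12233 genes averaging 0.5 RPKM or more and used the 6 libraries jointly. P-values were adjusted by Benjamini and Hochberg's method, with 0.05 as the threshold. An adjusted p is from this test unless the sentence credits it to the authors, to another fit or to a fit without a named library. Changes on this scale understate those of low genes. Fold values are ratios of mean RPKM. Same-numbered replicates were not treated as pairs: the correlation of their deviations was 0.018, 0.202 and -0.034 between the 3 pairs of groups. The scripts were tested on simulated data.

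The 10 genes and all lists were chosen with earlier results of these data known. From each list, up to 4 called genes with the smallest p were named per comparison. 1 item that this rule names is not reported here. The 14 alternatives per comparison were a pseudocount of 0.1, no filter, a minimum mean of 2 RPKM, only the groups compared, upper-quartile scaling, voom on recovered reads, array weights, a replicate block and leaving out each of 6 libraries. Gene positions and promoters are from RefSeq GRCm38.p6, the assembly that mm10 holds, and 10 of 10 genes matched by gene ID.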

Additional observations from a re-analysis of the deposited data

How the results depend on the processing

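Of 417 values recomputed, 348 kept their direction and side of the threshold, 43 lost a call, 6 gained a call and 20 changed sign. Fitting only the groups compared gave 1 member and 60 genes for Cdc42+/- against WT, 2 and 536 for Cdc42-/- against WT, and 2 and 276 for Cdc42-/- against Cdc42+/-. Array weights gave 1 member and 88 genes, then 3 and 885, in the first 2 of these comparisons. Voom called 1 gene for Cdc42+/- against WT. With the replicate number as a block, 3 members were called for Cdc42-/- against WT, Batf (adjusted p = 0.0559) and Il10 (0.05004) being lost, and Batf was lost against Cdc42+/- (0.0679). Leaving out single libraries gave 0 to 1 members and 0 to 76 genes for Cdc42+/- against WT, 1 to 7 and 259 to 4433 for Cdc42-/- against WT, and 0 to 5 and 0 to 4263 for Cdc42-/- against Cdc42+/-. Without either Cdc42+/- library, 0 genes were called in the last. Without WT replicate 1 or 2, 2 and 1 members were called for Cdc42-/- against WT. Without Cdc42-/- replicate 1 or 2, 4433 and 2263 genes were. A group left with 1 library was assumed to vary like the others, and each such fit has fewer samples.

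Under upper-quartile scaling the calls for Cdc42-/- against WT split into 731 higher and 753 lower, beside 839 and 559 with RPKM. Changes that turned sign were all of genes not called: for Cdc42+/- against WT, Areg was 0.11 with a pseudocount of 0.1, Irf4 was -0.029 with upper-quartile scaling and -0.011 with voom, and Batf was -0.026 with upper-quartile scaling. Leaving out single libraries gave -0.48 to 0.42 (Areg), -0.16 to 0.17 (Batf) and -0.16 to 0.16 (Irf4) in that comparison. For Cdc42-/- against WT the ranges were -0.074 to 0.85 (Areg), -0.20 to 0.15 (Klrg1) and -0.23 to 0.77 (Fgl2). For Cdc42-/- against Cdc42+/- they were -0.044 to 0.88 (Areg), -0.53 to 0.47 (Fgl2), -0.32 to 0.050 (Maf) and -0.079 to 0.31 (Ebi3). The cause was not tested. Areg gave no value with a minimum mean of 2 RPKM.

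Precision is limited by 2 libraries per genotype, and Il10 and Areg had the fewest reads.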
